A study of Mus musculus with 6 samples.

Results

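The Ms4a genes of one cluster on mouse chromosome 19 were examined in RNA from spleen pieces, in 6 samples. The members are the 10 rows of the count table whose Ensembl identifiers carry the symbols Ms4a1, Ms4a2, Ms4a3, Ms4a4b, Ms4a4c, Ms4a6b, Ms4a6c, Ms4a6d, Ms4a7 and Ms4a8a, of 31771 gene rows in all. They were chosen by name, and all 10 had enough counts to be tested. The mice of the 3 mutant samples carried VEC-Cre, an SB transposase and onc2, and the 3 controls were labelled WT, all on the strain C57BL/6. VEC-Cre is Cre recombinase driven by the promoter of VE-cadherin, an adhesion molecule of endothelium, which is also active in the embryonic endothelium that gives rise to blood cells. The SB transposase moves Sleeping Beauty transposons such as onc2 to new places in the genome, where they can activate or break genes, so each mutant mouse may carry its own insertions. No age is given, and no label says that the samples came from separate mice, so p-values measure the spread between these samples. The comparison addressed the make-up of the spleen by cell type.

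Proteins of the MS4A family cross the cell membrane several times and sit beside receptors, whose signals or transport they alter. Their genes lie side by side, and single members are used as markers of single blood lineages. CD20, the product of Ms4a1, marks B cells, the product of Ms4a2 is the beta chain of the high-affinity receptor for immunoglobulin E (IgE) on mast cells and basophils, and Ms4a3 marks precursors of granulocytes and monocytes. Ms4a4b is known from T cells, and Ms4a6b from T cells and myeloid cells. Ms4a4c, Ms4a6c, Ms4a6d and Ms4a7 are known mainly from monocytes and macrophages and Ms4a8a from some macrophages and epithelia.

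The members lie in 1 cluster, and some are near copies of each other. Among the 45 pairs of members, the longest coding sequences had a median identity of 58.9% over aligned bases, and the highest was 91.7%, between Ms4a4b and Ms4a4c. Gaps were left out of this measure, so it can be high without close likeness. Ms4a14, a family gene outside the members, reached 83.0% with Ms4a4b, though their longest shared run was 10 bases. The paralogs Ms4a4b and Ms4a4c are shown first because they lie next to each other and have been described in different lineages. Their coding sequences, from the GENCODE M21 transcripts of GRCm38, are identical over a run of 127 bases, printed here in lower case throughout.
Ms4a4b and Ms4a4c: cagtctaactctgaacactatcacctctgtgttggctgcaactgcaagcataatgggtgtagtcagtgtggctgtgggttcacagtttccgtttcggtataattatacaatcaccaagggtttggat
Ms4a6b and Ms4a6c shared 85.8% of aligned coding bases, and Ms4a6b and Ms4a6d 81.2%. Of all windows of 50 bases in the annotated transcripts, 8.19% of those of Ms4a4c, 2.40% of those of Ms4a4b, 3.57% of those of Ms4a6b and 2.54% of those of Ms4a6d also occur in a transcript of another gene. Ms4a1, Ms4a2, Ms4a3, Ms4a7 and Ms4a8a shared between 0% and 2.10%. Ms4a6c stood apart at 51.4%, mostly because BE692007, an annotated transcript on the opposite strand, overlaps it. Counts of Ms4a6c are therefore uncertain where the counting did not use strand, which is not stated, and those of the Ms4a4b and Ms4a4c pair are uncertain for the few reads that fall in shared runs.

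Promoter windows, 250 bases before to 50 bases after the start of transcription, were found in the RefSeq table of GRCm38.p6 for 8 of the 10 members. The windows of the Ms4a4b and Ms4a4c pair were 77.9% identical over 289 aligned bases. They are printed because levels of the genes differed among the mutants, as given below, and capitals mark matches to the motifs searched.
Ms4a4b (chr19:11443308-11443607, plus strand): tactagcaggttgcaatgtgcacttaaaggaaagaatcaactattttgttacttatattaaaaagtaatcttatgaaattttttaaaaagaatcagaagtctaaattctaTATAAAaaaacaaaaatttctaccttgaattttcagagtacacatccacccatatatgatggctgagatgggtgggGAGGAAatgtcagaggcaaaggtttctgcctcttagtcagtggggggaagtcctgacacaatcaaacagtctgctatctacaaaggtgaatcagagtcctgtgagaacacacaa
Ms4a4c (chr19:11407411-11407710, plus strand): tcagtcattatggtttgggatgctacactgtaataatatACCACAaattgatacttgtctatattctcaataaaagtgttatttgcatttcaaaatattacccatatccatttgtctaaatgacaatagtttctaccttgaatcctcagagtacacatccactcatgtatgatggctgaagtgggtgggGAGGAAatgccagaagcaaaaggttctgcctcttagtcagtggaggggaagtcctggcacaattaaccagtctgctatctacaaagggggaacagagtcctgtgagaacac
Ms4a6b and Ms4a6c had windows that were 85.3% identical over 225 aligned bases. The levels of both genes were above the controls in mutant 2 and below them in mutants 1 and 3, though not by the same amount. Capitals mark the longest run of 48 bases that both windows hold.
Ms4a6b (chr19:11518309-11518608, plus strand): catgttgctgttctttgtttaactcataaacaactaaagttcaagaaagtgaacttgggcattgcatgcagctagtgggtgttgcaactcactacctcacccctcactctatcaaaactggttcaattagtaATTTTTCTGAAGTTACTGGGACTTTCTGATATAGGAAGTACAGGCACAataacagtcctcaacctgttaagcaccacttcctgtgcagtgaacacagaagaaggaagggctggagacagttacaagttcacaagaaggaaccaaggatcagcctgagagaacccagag
Ms4a6c (chr19:11469118-11469417, plus strand): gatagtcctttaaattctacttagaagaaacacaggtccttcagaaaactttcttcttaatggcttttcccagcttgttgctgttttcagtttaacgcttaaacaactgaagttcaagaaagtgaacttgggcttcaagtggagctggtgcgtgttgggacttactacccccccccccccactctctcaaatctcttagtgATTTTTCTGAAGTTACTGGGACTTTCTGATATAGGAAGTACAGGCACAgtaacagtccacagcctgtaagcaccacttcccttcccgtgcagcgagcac
The windows of Ms4a2 and Ms4a3, the members with their highest level in mutant 1, are printed with motif matches in capitals.
Ms4a2 (chr19:11623670-11623969, minus strand): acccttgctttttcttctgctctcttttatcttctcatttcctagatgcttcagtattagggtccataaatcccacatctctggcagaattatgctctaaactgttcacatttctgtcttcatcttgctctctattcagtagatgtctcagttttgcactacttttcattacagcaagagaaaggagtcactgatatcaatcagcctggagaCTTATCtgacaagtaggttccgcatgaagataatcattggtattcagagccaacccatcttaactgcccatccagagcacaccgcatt
Ms4a3 (chr19:11640802-11641101, minus strand): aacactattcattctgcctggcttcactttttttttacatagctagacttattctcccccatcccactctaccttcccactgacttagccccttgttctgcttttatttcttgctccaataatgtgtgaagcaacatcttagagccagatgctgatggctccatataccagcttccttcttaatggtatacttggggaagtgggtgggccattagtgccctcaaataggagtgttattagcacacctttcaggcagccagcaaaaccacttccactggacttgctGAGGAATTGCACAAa

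Motifs were searched on both strands in the 9 windows of members and in all 32851 windows of the table. The core GAGGAA of PU.1, a transcription factor of myeloid and B cells, was in 4 of the 9 windows, those of Ms4a4b, Ms4a4c, Ms4a3 and 1 of the 2 windows of Ms4a7, against 28.3% of all windows. In Ms4a4b and Ms4a4c it began 64 and 61 bases before the start site. The GATA motif GATAAG was in the windows of Ms4a2 and in the other window of Ms4a7, against 7.44% of all windows, and in Ms4a2 it is printed as its reverse complement. The C/EBP motif TTGCNNAA was in the window of Ms4a3 directly after its PU.1 core, against 10.8% of all windows. The RUNX motif TGTGGT was in that of Ms4a4c, against 16.8% of all, and the TATA box TATAAA in that of Ms4a4b, against 13.6% of all. The EBF1 motif CCCNNGGG was in 0 of the 9 windows, against 13.7% of all. These matches describe letters only.

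Levels are given as CPM, the counts of a gene scaled to a library total of 1000000. The libraries held 72902118 to 79258116 counts. Fold changes are log2 of mutant over control ± SE from edgeR's quasi-likelihood test over 19573 genes, with p adjusted by Benjamini-Hochberg. At an adjusted p under 0.05, 995 of these genes (5.08%) were higher in mutants and 1351 (6.90%) were lower. The biological coefficient of variation was 72.8% among the mutants and 17.3% among the controls. Xist, the RNA that silences an X chromosome in females, was at 1513, 580.1 and 0.586 CPM in mutants 1, 2 and 3 (controls 0.423 to 0.663 CPM), so mutants 1 and 2 differed from the controls in sex as well as genotype, and mutant 3 did not. The part of sex in the members' levels was not tested. The spleen transcription factor gene Tlx1 was found in all libraries, at 10.6, 13.9 and 8.48 CPM in mutants 1, 2 and 3 (controls 27.4 to 31.3 CPM). In RNA from whole tissue, fewer cells of a type and less RNA per cell cannot be told apart.

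The cluster lost its control make-up in every mutant. Of the 10 members, 1 rose (Ms4a3) and 1 fell (Ms4a1), against 5.08% and 6.90% of all genes tested, and the other 8 did not pass. The median log2 fold change of the members was 0.58, beside 0.10 for all genes tested. Taken for each mutant, the members' median log2 ratio to the control mean was -3.38, 1.66 and -2.14 in mutants 1, 2 and 3. For all genes tested it was -0.052, -0.024 and -0.022. Only mutant 2 thus had a positive median over the members. The levels of all 3 mutants lay above the controls for 3 members (Ms4a3, Ms4a6d and Ms4a8a) and below them for 3 (Ms4a1, Ms4a4b and Ms4a4c), where 18.0% and 22.6% of genes tested did so (40.5% in either direction). For Ms4a2, Ms4a6b, Ms4a6c and Ms4a7 the groups overlapped. The range over the 3 mutants had a median of 5.05 log2 units for the members, against 1.20 for all genes tested, and the range over the controls a median of 0.35, against 0.29. Among the 3 mutants, mutant 2 held the highest level of 7 members and mutant 1 the lowest level of 7. Over all genes tested, mutant 2 held the highest level of the 3 for 35.3%, and the share lowest in mutant 1 was not calculated.

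**Figure D1:**
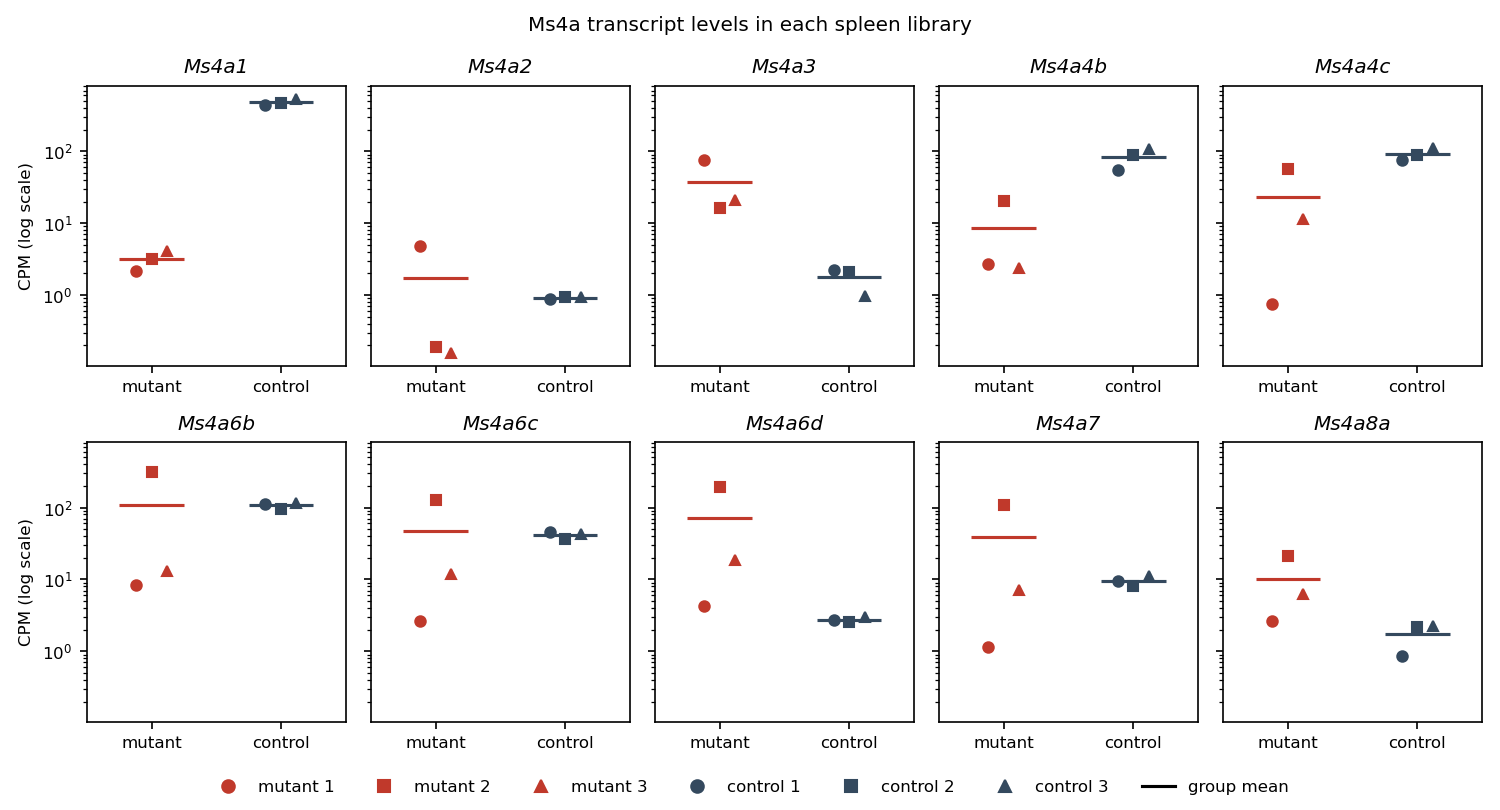
CPM of each of the 10 members on a log scale, with 1 point per library, mutants left and controls right, and the group mean as a line. Ms4a1 lies at 2.15 to 4.08 CPM in the mutants and 439.6 to 539 CPM in the controls, while Ms4a6b, Ms4a6c, Ms4a6d, Ms4a7 and Ms4a8a are highest in mutant 2.

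Per length, as CPM per kilobase of merged exons, the controls had the same 5 leading members in the same order. Ms4a1 averaged 78.3 ± 8.12 CPM per kb in the controls (SD, n = 3), followed by Ms4a4c at 52.6 ± 9.58, Ms4a6b at 24.0 ± 2.54, Ms4a6c at 20.3 ± 2.27 and Ms4a4b at 9.55 ± 3.02 CPM per kb. Ms4a7, Ms4a6d, Ms4a8a, Ms4a3 and Ms4a2 followed at 2.15 ± 0.348, 1.59 ± 0.137, 0.978 ± 0.430, 0.935 ± 0.365 and 0.327 ± 0.00949 CPM per kb. In this order the neighbours Ms4a6b and Ms4a6c, and Ms4a8a and Ms4a3, had overlapping values over the 3 controls.

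The leading member was another one in each mutant than in the controls. Ms4a3 led in mutant 1 with 79.8% of the summed CPM per kb of the 10 members, Ms4a6d in mutant 2 with 34.3% and Ms4a3 in mutant 3 with 26.0%, against Ms4a1 with 40.4 to 42.0% in the controls. In mutant 3, Ms4a6d was close behind at 24.9%, whereas in mutant 1 it came next with 4.95%. Ms4a1 made up 0.692%, 0.160% and 1.52% in mutants 1, 2 and 3. The summed level of the members was 50.3, 320.1 and 43.3 CPM per kb in mutants 1, 2 and 3, against 173, 183 and 216 CPM per kb in controls 1, 2 and 3. With the length of the longest transcript in place of merged exons, Ms4a1 made up 54.7 to 56.2% in the controls, and each library kept its leading member.

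**Figure D2:**
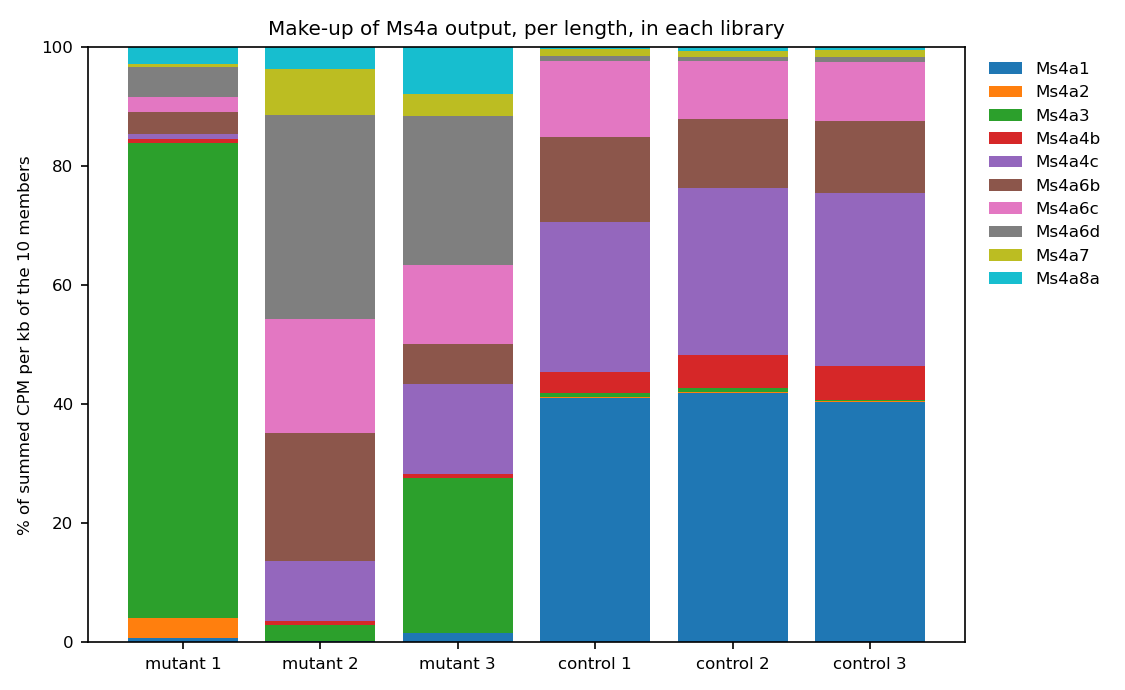
Share of each member in the summed CPM per kilobase of the 10 members, as 1 stacked bar for each library, mutants left of controls. The controls look alike with Ms4a1 at 40.4 to 42.0%, whereas Ms4a3 takes 79.8% in mutant 1 and Ms4a6d 34.3% in mutant 2.

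Ms4a1 (ENSMUSG00000024673, chromosome 19, 11249675 to 11266241, minus strand), which encodes the B-cell membrane protein CD20, was at 2.15, 3.17 and 4.08 CPM in mutants 1, 2 and 3, against 439.6, 476 and 539 CPM in controls 1, 2 and 3. All 3 mutants lay far below the controls and close to one another. The groups averaged 3.13 ± 0.963 CPM in mutants and 485 ± 50.2 CPM in controls (SD, n = 3 each), and the gene fell (log2 fold change -7.26 ± 0.34, adjusted p = 0.000698). This call held in all 19 alternatives, with adjusted p up to 0.00941. Of the B-cell list, 10 of 10 genes fell. Their median log2 fold change was -6.86, beside 0.10 for all genes tested, and 8 still passed whichever control was left out. Cd79b, a signalling chain of the B-cell receptor, was at 58.2, 29.3 and 9.78 CPM in mutants 1, 2 and 3 (controls 1012 to 1195 CPM, log2 fold change -5.10 ± 0.71, adjusted p = 0.0135).

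The remaining Ms4a1 level was not tied to the remaining B-cell list in the same way in each mutant. As log2 of Ms4a1 over the summed CPM of the 10 list genes it was -5.68, -5.01 and -3.59 in mutants 1, 2 and 3, against -3.92 to -3.75 in the controls. Mutants 1 and 2 thus lay below the control range and mutant 3 just above it. The list itself summed to 111, 102 and 49.1 CPM in mutants 1, 2 and 3 (controls 6479.7 to 7256 CPM). Cd79b made up most of that sum in mutant 1 alone. The ratio without Cd79b was not calculated.

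Ms4a4b (ENSMUSG00000056290, chromosome 19, 11443553 to 11467055, plus strand), which encodes a T-cell membrane protein, was at 2.74, 20.3 and 2.40 CPM in mutants 1, 2 and 3, against 54.9, 89.7 and 107 CPM in controls 1, 2 and 3. Mutants 1 and 3 were nearly equal and mutant 2 was higher than both, though below every control. The gene did not pass with all libraries (log2 fold change -3.23 ± 0.97, adjusted p = 0.0831). Without mutant 2 it fell (log2 -5.05, adjusted p = 0.00278 by edgeR), and over all alternatives its adjusted p ranged from 0.00278 to 0.238. Of the T-cell list 5 of 10 genes fell, and the median log2 fold change was -3.83. Without mutant 2 that count was 10, without mutant 1 or 3 it was 3, and without 1 control it was 2, whichever that was. Lck, the kinase that starts signalling from the T-cell receptor, was at 18.3, 25.7 and 11.2 CPM in mutants 1, 2 and 3 (controls 149.5 to 183 CPM, log2 fold change -3.17 ± 0.37, adjusted p = 0.00907). Cd4, a coreceptor of helper T cells that macrophages can also express, was at 5.20, 197 and 6.59 CPM in mutants 1, 2 and 3 (controls 85.0 to 107 CPM, log2 fold change -0.39 ± 1.36, adjusted p = 0.869).

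Relative to the summed T-cell list, Ms4a4b kept close to its control level in mutants 1 and 3, and in mutant 2 with Cd4 counted. The log2 ratio was -3.70, -3.89 and -3.62 in mutants 1, 2 and 3, against -4.14 to -3.13 in the controls. All 3 mutants lay within the control range. In mutant 2, Cd4 made up most of the summed list and was above the controls, which lowers the ratio there. The list median was below the controls in that mutant (log2 ratio -2.62). The ratio without Cd4 was not calculated.

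Ms4a4c (ENSMUSG00000024675, chromosome 19, 11404770 to 11427246, plus strand), the near copy of Ms4a4b, is known from monocytes. It was at 0.754, 56.3 and 11.5 CPM in mutants 1, 2 and 3, against 76.5, 89.9 and 109.8 CPM in controls 1, 2 and 3. Mutant 1 had almost none, mutant 3 an intermediate level and mutant 2 came closest to the controls, without overlap between the groups. The gene did not pass (log2 fold change -1.93 ± 1.27, adjusted p = 0.344). The 2 paralogs differed in mutant 3, where the log2 ratio to the control mean was -5.11 for Ms4a4b and -3.03 for Ms4a4c, and in mutant 1, where it was -4.88 for Ms4a4b and -6.88 for Ms4a4c. The difference between the genes was not tested.

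Ms4a2 (ENSMUSG00000024680, chromosome 19, 11615523 to 11623719, minus strand), the beta chain that amplifies signals of the high-affinity IgE receptor, was at 4.86, 0.188 and 0.156 CPM in mutants 1, 2 and 3, against 0.893, 0.924 and 0.946 CPM in controls 1, 2 and 3. In counts these were 354, 14 and 12 in the mutants, against 66, 72 and 75 in the controls. Mutant 1 was above the controls and mutants 2 and 3 were below them, while the controls were nearly identical. The gene did not pass (log2 fold change 0.90 ± 1.30, adjusted p = 0.676). Without mutant 1 its direction turned and it fell (log2 -2.37, adjusted p = 0.0204 by edgeR), which was the lowest of a range up to 1.0 among alternatives with at least 2 samples a group.

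The other chains and kinases of the IgE receptor did not share 1 pattern. Fcer1a, the ligand-binding alpha chain, was at 169, 0.0941 and 0.0261 CPM in mutants 1, 2 and 3, against 0.352, 0.257 and 0.114 CPM in controls 1, 2 and 3, and was named after its values were seen. It was high in mutant 1 alone, as Ms4a2 was, and did not pass (log2 fold change 7.84 ± 3.21, adjusted p = 0.159). Fcer1g, the signalling gamma chain that many other receptors also use, was instead highest in mutant 2, at 55.0, 833 and 68.6 CPM in mutants 1, 2 and 3 (controls 97.3 to 129 CPM, log2 fold change 1.57 ± 1.09, adjusted p = 0.372), and was also named after its values were seen. Syk, the kinase that binds the gamma chain, was at 222, 217 and 90.4 CPM in mutants 1, 2 and 3 (controls 605 to 652 CPM, log2 fold change -1.82 ± 0.39, adjusted p = 0.0359). It fell, and no longer passed with any 1 control left out. Lyn, the kinase that acts before Syk, was at 128, 359 and 129.5 CPM in mutants 1, 2 and 3 (controls 271 to 322 CPM, log2 fold change -0.47 ± 0.47, adjusted p = 0.541). Of these 4 genes 1 fell with all libraries, and 3 fell without mutant 2. In the controls Syk and Lyn stood far above Fcer1a, and which cells their levels came from was not tested.

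Mcpt8 and Cpa3 stayed under 4 CPM in every library. Of the 10 genes of the mast cell and basophil list 8 were tested, 0 rose, against 2 by DESeq2 and 0 by limma-voom, and 1 fell (Cma1, a mast cell chymase, log2 fold change -2.61 ± 0.45, adjusted p = 0.0215). The median log2 fold change was 0.51, and the count that rose was 2 without mutant 2 and 1 without mutant 1. Cma1 no longer passed with any 1 control left out. With p unadjusted and under 0.05, edgeR gave 2 genes of the list higher. Mcpt8, a basophil protease, was at 1.98, 1.22 and 0.521 CPM in mutants 1, 2 and 3 (controls 0.667 to 1.77 CPM), and Cpa3, a carboxypeptidase of mast cells, at 3.22, 0.807 and 0.117 CPM in mutants 1, 2 and 3 (controls 0.681 to 0.911 CPM). Gata2, a transcription factor of progenitors and mast cells, was at 399, 18.0 and 125 CPM in mutants 1, 2 and 3 (controls 12.6 to 14.6 CPM, log2 fold change 3.70 ± 1.02, adjusted p = 0.0676), and Kit, the receptor for stem cell factor, at 127, 29.2 and 108 CPM in mutants 1, 2 and 3 (controls 34.2 to 42.4 CPM, log2 fold change 1.18 ± 0.49, adjusted p = 0.165). Gata2 was thus highest in mutant 1, where Ms4a2 and Fcer1a were highest too. In mutant 1 the log2 ratio to the control mean was 2.0 for Cpa3 and 0.96 for Mcpt8, beside 2.35 for Ms4a2, and it was -2.43 for Cma1. Mcpt8, Cpa3 and Cma1 were named after their values were seen.

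**Figure D3:**
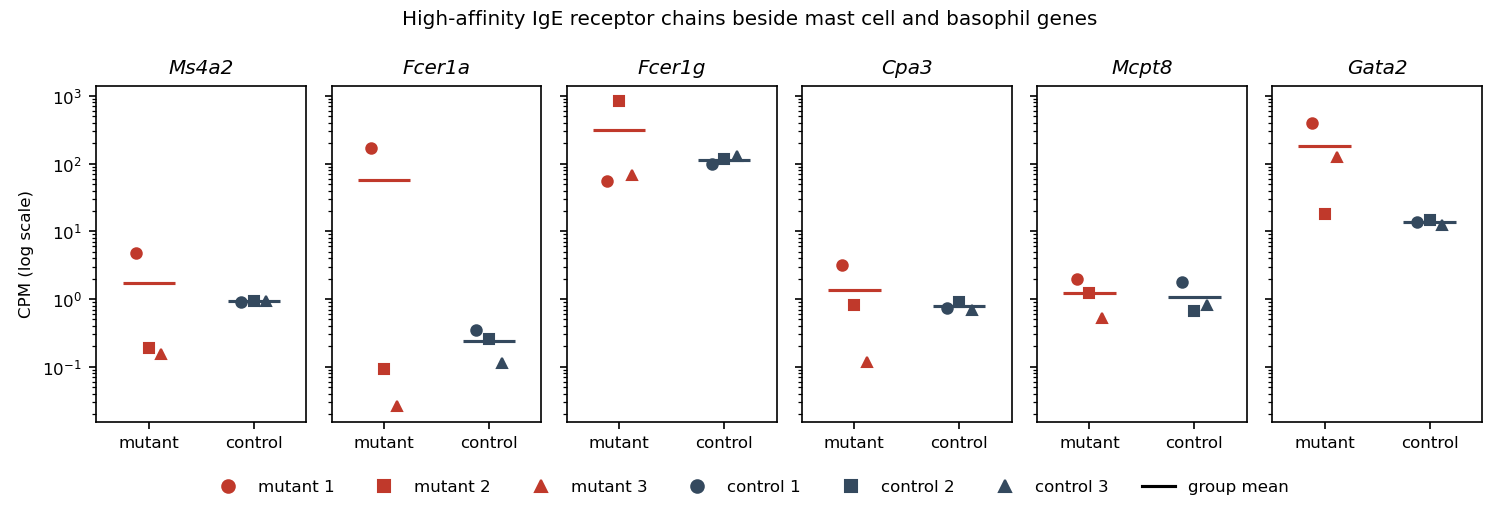
CPM on a log scale of 3 chains of the IgE receptor (Ms4a2, Fcer1a and Fcer1g) and of 3 mast cell, basophil and progenitor genes, 1 point per library with the group mean as a line, mutants left of controls. Fcer1a stands at 169 CPM in mutant 1 and below 0.36 CPM in the other libraries, while Mcpt8 lies between 0.521 and 1.98 CPM in all 6.

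Ms4a3 (ENSMUSG00000024681, chromosome 19, 11629496 to 11640851, minus strand) encodes a protein that in human cells restrains the cell cycle and that marks granulocyte and monocyte precursors in mice. It was at 75.7, 16.1 and 21.2 CPM in mutants 1, 2 and 3, against 2.23, 2.08 and 0.972 CPM in controls 1, 2 and 3. Every mutant was above every control, and mutant 1 was highest by far. The groups averaged 37.7 ± 33.0 CPM in mutants and 1.76 ± 0.688 CPM in controls (SD, n = 3 each), and the gene rose (log2 fold change 4.40 ± 0.76, adjusted p = 0.0219). Without control 1, 2 or 3 it no longer passed (adjusted p = 0.106, 0.110 and 0.111 by edgeR), whereas it still passed with any 1 mutant left out, with a range of 2.03e-08 to 0.111 among its alternatives.

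In mutants 1, 2 and 3 the log2 ratio to the control mean was 5.48, 3.36 and 3.61 for Ms4a3. Its median over the precursor genes was 1.91, 3.29 and 3.08 in mutants 1, 2 and 3. Ms4a3 thus stood far above that median in mutant 1 alone. Of the 7 genes of the granulocyte and monocyte precursor list 4 rose (Mpo, Prtn3, Ctsg and Cebpe) and 0 fell, and their median log2 fold change was 2.76. Without control 1 the count was 1, and without control 2 or 3 the genes no longer passed, while without mutant 1, 2 or 3 it was 5, 4 and 3. Prtn3, a protease of primary granules, was at 416, 56.7 and 90.9 CPM in mutants 1, 2 and 3 (controls 4.38 to 12.5 CPM, log2 fold change 4.50 ± 0.92, adjusted p = 0.0323). Irf8, a transcription factor of monocyte and B-cell development, was at 17.0, 217 and 52.4 CPM in mutants 1, 2 and 3 (controls 406 to 439 CPM, log2 fold change -2.07 ± 0.90, adjusted p = 0.178). As log2 of Ms4a3 over the summed list, the ratio was -2.79, -5.12 and -4.34 in mutants 1, 2 and 3, against -8.93 to -7.72 in the controls. All 3 mutants thus lay above the control range, mutant 1 furthest. Irf8 made up most of the summed list in the controls but not in the mutants, so its lower level there raises this ratio. The ratio without Irf8 was not calculated. In mature neutrophils, which derive from these precursors, S100a9, a calcium-binding protein, was at 23.4, 719.8 and 423 CPM in mutants 1, 2 and 3 (controls 67.9 to 103 CPM) and Ngp, a granule protein, at 13.7, 606 and 209 CPM in mutants 1, 2 and 3 (controls 53.5 to 98.7 CPM). Both were lowest in mutant 1, where Ms4a3 was highest, and 0 of the 10 neutrophil genes passed by edgeR. With p unadjusted and under 0.05 it called 3 of them higher, and DESeq2 called 4 and limma-voom 0. Without mutant 1, edgeR called 7 higher.

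Ms4a6b (ENSMUSG00000024677, chromosome 19, 11516512 to 11531256, plus strand) is expressed by T cells and myeloid cells. It was at 8.29, 309 and 13 CPM in mutants 1, 2 and 3, against 111, 95.1 and 117 CPM in controls 1, 2 and 3. Mutant 2 was above the controls and mutants 1 and 3 were below them. Group means were therefore close, at 110.2 ± 172 CPM in mutants and 108 ± 11.4 CPM in controls (SD, n = 3 each), and the gene did not pass (log2 fold change 0.12 ± 1.32, adjusted p = 0.959). Without mutant 2 it fell (log2 -3.37, adjusted p = 0.00302 by edgeR), the lowest of a range up to 1.0 among alternatives with at least 2 samples a group.

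Ms4a6c (ENSMUSG00000079419, chromosome 19, 11469366 to 11482192, plus strand), a monocyte gene, had a like pattern. It was at 2.63, 126 and 11.8 CPM in mutants 1, 2 and 3, against 45.0, 36.3 and 43.4 CPM in controls 1, 2 and 3 (log2 fold change 0.25 ± 1.25, adjusted p = 0.907). Mutant 2 was above the controls and the other mutants were below them. Without mutant 2 it fell as well (log2 -2.57, adjusted p = 0.0457 by edgeR), again the lowest of a range up to 1.0 among the same alternatives. BE692007, which overlaps Ms4a6c on the opposite strand, was at 1.44, 47.6 and 4.23 CPM in mutants 1, 2 and 3 (controls 47.1 to 74.4 CPM). In mutant 2 it lay within the range of the controls, where Ms4a6c lay above it.

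Ms4a6d (ENSMUSG00000024679, chromosome 19, 11586604 to 11604849, minus strand) encodes a macrophage protein that has been described as a partner of the complement receptor VSIG4. It was at 4.32, 191 and 18.7 CPM in mutants 1, 2 and 3, against 2.73, 2.53 and 3.0 CPM in controls 1, 2 and 3. Mutant 2 was far above the controls, mutant 3 was clearly above them and mutant 1 only slightly. The gene did not pass with all libraries (log2 fold change 4.78 ± 1.44, adjusted p = 0.0832), passed without mutant 1 (log2 5.34, adjusted p = 0.0281 by edgeR), and ranged from 0.000420 (DESeq2) to 0.282 among alternatives with at least 2 samples a group. Its rank per length in the controls was 7 of 10, and in mutant 2 it was 1.

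Ms4a7 (ENSMUSG00000024672, chromosome 19, 11321039 to 11336146, minus strand), a gene of resident macrophages, was at 1.14, 109 and 7.13 CPM in mutants 1, 2 and 3, against 9.55, 8.06 and 11.2 CPM in controls 1, 2 and 3 (log2 fold change 2.11 ± 1.47, adjusted p = 0.371). Mutant 2 was above the controls, mutant 3 just below them and mutant 1 well below. It passed in 0 of its 19 alternatives. Ms4a8a (ENSMUSG00000024730, chromosome 19, 11067471 to 11081102, minus strand), known from some macrophages, was at 2.61, 21.4 and 6.18 CPM in mutants 1, 2 and 3, against 0.866, 2.14 and 2.26 CPM in controls 1, 2 and 3 (log2 fold change 2.58 ± 0.89, adjusted p = 0.113). Its 3 mutants were all above the controls, mutant 1 by little. It passed without mutant 1 (adjusted p = 0.0461 by edgeR), with a range of 0.0123 to 0.313.

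Mutant 2 was also the highest of the 6 libraries for 7 of the 10 genes of the monocyte list and for all 10 of the macrophage list. The share of all genes tested that were highest of the 6 libraries in mutant 2 was not calculated. Of the monocyte list 1 of 10 genes rose (F13a1, a clotting factor subunit) and 0 fell. The median log2 fold change was 0.99, and the call of F13a1 was lost whichever control was left out. The count that fell was 2 without mutant 2 and 1 without mutant 1 or 3. Of the macrophage list 0 of 10 passed by edgeR and the median was 1.5. With p unadjusted and under 0.05, edgeR called 1 higher, as did DESeq2, and limma-voom called 0. Without mutant 2, edgeR called 3 lower, and without mutant 3 it called 1 higher. Lyz2, the lysozyme of myeloid cells, was at 73.2, 4711 and 445 CPM in mutants 1, 2 and 3 (controls 902 to 1248 CPM), and Csf1r, the receptor for the macrophage growth factor CSF1, at 40.0, 1577 and 78.5 CPM in mutants 1, 2 and 3 (controls 219 to 324 CPM). C1qa and C1qb, chains of the complement protein C1q, were at 42.1, 2269 and 101 CPM in mutants 1, 2 and 3 (controls 116 to 158 CPM) and at 49.5, 2281 and 116 CPM in mutants 1, 2 and 3 (controls 96.4 to 144 CPM). The macrophage list summed to 789, 10131 and 805 CPM in mutants 1, 2 and 3 (controls 899 to 1176 CPM). The part of the number of macrophages in the levels of Ms4a6d and Ms4a7 was not tested.

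Set against these lists, the members split. The median log2 ratio to the control mean of the monocyte list was -2.09, 2.47 and -0.53 in mutants 1, 2 and 3. Ms4a4c lay below that median in every mutant, at -6.88, -0.60 and -3.03 in mutants 1, 2 and 3, as did Ms4a6b, at -3.71, 1.62 and -3.09 in mutants 1, 2 and 3, and Ms4a6c, at -3.98, 1.70 and -1.86 in mutants 1, 2 and 3. Ms4a6b, which T cells also express, lay above the T-cell list median of -5.68, -2.62 and -5.65 in mutants 1, 2 and 3. The median of the macrophage list was -1.81, 2.87 and -0.58. Ms4a6d lay above it in every mutant, at 0.63, 6.20 and 2.71 in mutants 1, 2 and 3, and so did Ms4a8a, at 0.66, 3.80 and 1.87 in mutants 1, 2 and 3. Ms4a7 stayed nearest to that median, at -3.05, 3.61 and -0.46 in mutants 1, 2 and 3. As log2 of Ms4a6d over the summed macrophage list, the ratio was -7.51, -5.73 and -5.43 in mutants 1, 2 and 3, against -8.84 to -8.36 in the controls, so that every mutant was above the control range. The same ratio of Ms4a7 was -9.44, -6.54 and -6.82 in mutants 1, 2 and 3, against -7.17 to -6.56 in the controls, with mutant 1 below and mutant 2 just above that range and mutant 3 within it. That of Ms4a8a was -8.24, -8.89 and -7.03 in mutants 1, 2 and 3, against -10.02 to -9.02 in the controls, above the range in all 3 mutants. The ratio of Ms4a4c to the summed monocyte list was -8.57, -7.10 and -6.05 in mutants 1, 2 and 3, against -4.13 to -3.97 in the controls, below the range in all 3 mutants.

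**Figure D4:**
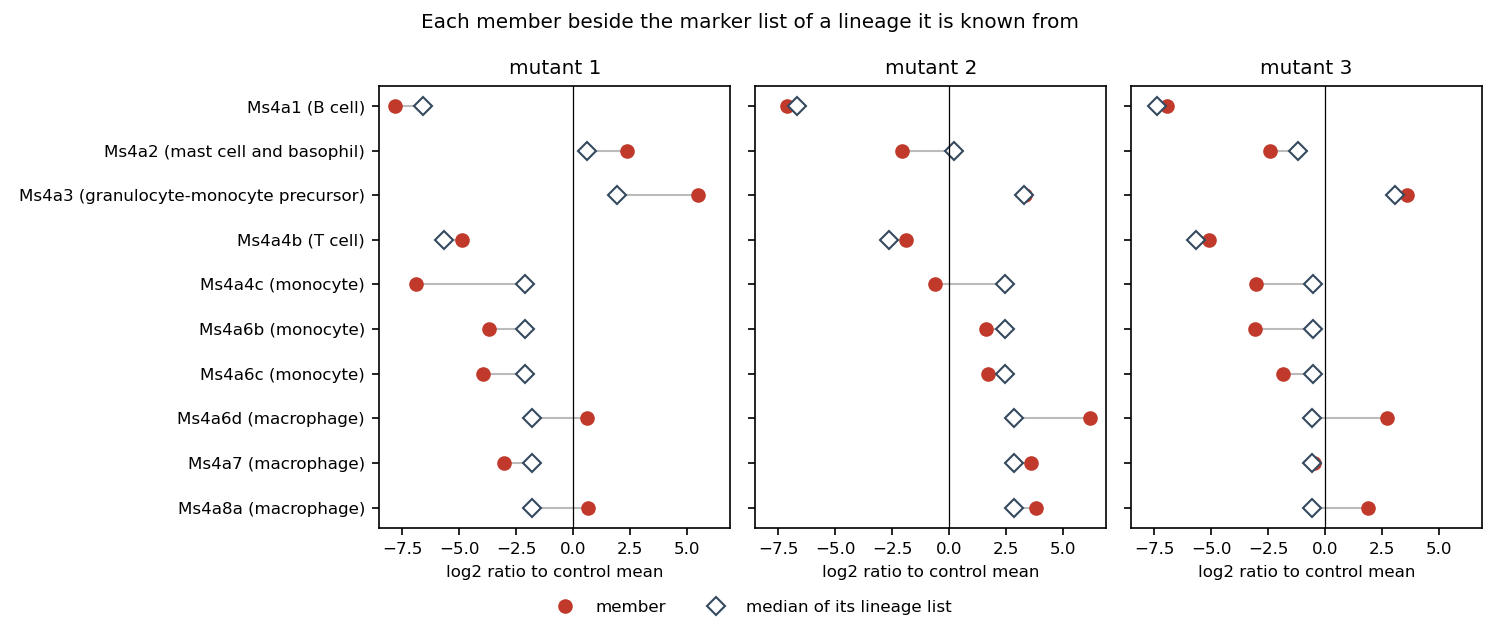
Log2 ratio to the control mean in each mutant, for each member (filled circles) and for the median of the marker list of a lineage it is known from (open diamonds), 1 panel for each mutant. Ms4a4b stays within 1 log2 unit of its list in all 3 mutants and Ms4a1 lies at -7.81 beside a list median of -6.61 in mutant 1, while Ms4a6d lies above its list and Ms4a4c below its list in each.

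The other family genes were a further 10 rows, of which 5 were tested and 0 passed by edgeR, as by DESeq2 and limma-voom. With p unadjusted, 0 were under 0.05 too. Ms4a4a, a macrophage gene whose product binds the fungal receptor dectin-1, was at 5.58, 265 and 12.2 CPM in mutants 1, 2 and 3, against 11.8, 7.98 and 10.8 CPM in controls 1, 2 and 3 (log2 fold change 3.30 ± 1.48, adjusted p = 0.189). It was high in mutant 2 alone. Per length it reached 317 CPM per kb there, above every member in that library, of which Ms4a6d was highest at 110 CPM per kb. Ms4a14 was at 0.576, 18.0 and 1.47 CPM in mutants 1, 2 and 3 (controls 0.937 to 2.56 CPM, log2 fold change 2.09 ± 1.31, adjusted p = 0.324), again highest in mutant 2.

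Ms4a4d, although 86.1% identical to Ms4a4c over aligned coding bases, differed little between libraries. It was at 4.98, 7.53 and 6.11 CPM in mutants 1, 2 and 3, against 4.82, 6.33 and 6.94 CPM in controls 1, 2 and 3 (log2 fold change 0.065 ± 0.34, adjusted p = 0.912). The groups overlapped and no library stood apart. Tmem176a and Tmem176b, relatives of the family outside the cluster that are known from dendritic cells, did not pass. Tmem176a was at 75.1, 149.6 and 38.6 CPM in mutants 1, 2 and 3 (controls 97.7 to 112 CPM, log2 fold change -0.20 ± 0.50, adjusted p = 0.816). Tmem176b was at 265, 347 and 68.5 CPM in mutants 1, 2 and 3 (controls 193 to 217 CPM, log2 fold change 0.21 ± 0.57, adjusted p = 0.829). Ms4a10, Ms4a12, Ms4a13, Ms4a15 and Ms4a18 had between 0 and 27 counts in a library and were not tested, and Ms4a5 was not analysed here.

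The cluster spans chromosome 19 from 10962293 to 11640851 (GRCm38), or 678559 bases with 18 Ms4a rows. Some neighbours on the chromosome had like values and others did not. In mutants 1, 2 and 3 the log2 ratio to the control mean was -3.98, 1.70 and -1.86 for Ms4a6c and -3.71, 1.62 and -3.09 for its neighbour Ms4a6b. Ms4a14 and Ms4a7, the next tested family gene, were at 3.62 and 3.61 in mutant 2. Ms4a2 and Ms4a3 lie side by side, and in mutants 2 and 3 the log2 ratio to the control mean was -2.06 and -2.42 for Ms4a2 but 3.36 and 3.61 for Ms4a3. Ms4a6d, the next gene, was at 6.20 and 2.71. Ms4a1, at -7.14 in mutant 2, lies between the tested family genes Ms4a8a at 3.80 and Ms4a14 at 3.62. The run of Ms4a4c, Ms4a4b, Ms4a6c and Ms4a6b was lower than the controls in mutants 1 and 3 for each gene.

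Of the 20 tested genes that flank the cluster, 10 on each side, 0 rose and 2 fell (10% lower, beside 6.90% of all genes), with a median log2 fold change of -0.40. Those 2 were Cd5 and Cd6, receptors of T cells, whose log2 fold changes were -3.97 and -3.73 (adjusted p = 0.0436 and 0.0358). Cd5 was at 1.03, 7.66 and 1.22 CPM in mutants 1, 2 and 3 (controls 52.3 to 56.1 CPM). Cd6 was at 2.61, 8.35 and 1.09 CPM in mutants 1, 2 and 3 (controls 51.6 to 60.7 CPM). Both lie on the side of Ms4a8a. Inside the span, 7 tested genes of other names had a median of -3.02, and 2 of them fell, Gm8369 (log2 -3.69, adjusted p = 0.0431) and Gm5511 (log2 -3.02, adjusted p = 0.0348), predicted genes of unknown role.

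**Figure D5:**
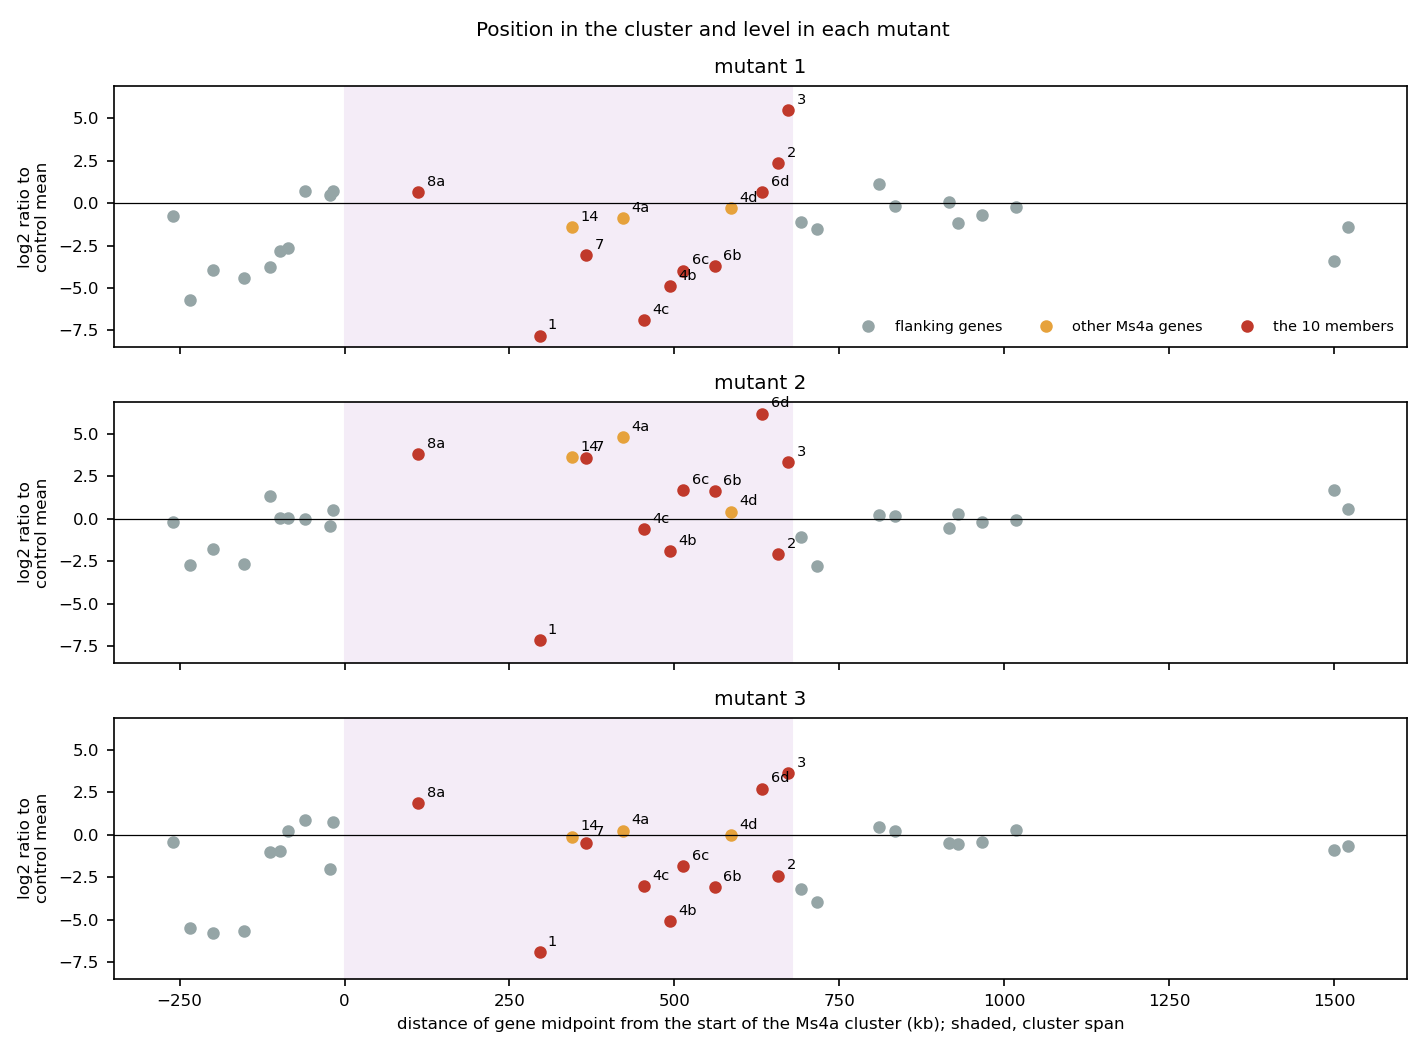
Log2 ratio to the control mean of each tested Ms4a gene and of the 20 flanking genes in mutants 1, 2 and 3, against the distance of its midpoint from the start of the cluster in kilobases, with the cluster span shaded and Ms4a names shortened to their endings. The 7 tested genes of other names inside the span are not drawn. In mutant 2 the members run from -7.14 (Ms4a1) to 6.20 (Ms4a6d), and over the 3 mutants the flanking genes run from -5.76 (A430093F15Rik in mutant 3) to 1.73 (Mpeg1 in mutant 2).

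Genes with the most similar profile were sought for each member among genes with a mean log2 CPM of at least 1. The measure was the root mean square difference between centred log2 CPM profiles over the 6 libraries, in log2 units. Ms4a1 was closest to Spib (0.225), a transcription factor of B cells and plasmacytoid dendritic cells, and to Fcmr (0.274), a receptor for immunoglobulin M. Ms4a3 was closest to Prtn3 (0.262) and Smim6 (0.574). Prtn3 and Ms4a3 shared the order of all 3 mutants, and Smim6 was at 13.2, 4.99 and 9.63 CPM in mutants 1, 2 and 3 (controls 0.593 to 0.924 CPM). Ms4a4b was closest to Pla2g5 (0.275), a secreted phospholipase, and Cmah (0.304), an enzyme of sialic acid synthesis.

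Among the monocyte and macrophage members, Ms4a7 was closest to Cd33 (0.143), a sialic acid receptor of myeloid cells, at 3.46, 405 and 22.8 CPM in mutants 1, 2 and 3 (controls 24.0 to 31.1 CPM), and to Rin2 (0.182). Ms4a6d was closest to Trem2 (0.326), a lipid receptor of macrophages, at 1.54, 56.2 and 4.38 CPM in mutants 1, 2 and 3 (controls 0.654 to 1.24 CPM), and to C5ar1 (0.436), a receptor for complement C5a. Ms4a6c was closest to Ctss (0.175), a protease of antigen presentation, and Gas6 (0.213), a ligand of receptors for dying cells. Ms4a6b was closest to Cd86 (0.236), a costimulatory ligand, and Ebi3 (0.265), a cytokine subunit. Ms4a4c was closest to Bst1 (0.403) and Mmp12 (0.416), a protease of macrophages. Ms4a8a was closest to Nid2 (0.200), a basement membrane protein, and Ccdc171 (0.384). Ms4a2 was closest to Mboat1 (0.265) and to the major histocompatibility gene H2-Q10 (0.308), at 63.6, 4.50 and 2.83 CPM in mutants 1, 2 and 3 (controls 10.2 to 15.2 CPM). With 6 libraries these likenesses are descriptions.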

How the data were processed

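Poly-A selected libraries of spleen RNA were made with a strand-marking kit, per the labels' protocols. The authors deposited whole-number counts per Ensembl gene without normalization. Per the submitters' processing notes, STAR 2.5.3a, limma, mm10 and GRCm38 are listed, with no role or order. Coordinates and lengths are from GENCODE M21 (GRCm38). Annotation release, strand setting and filters: not given in the sources used here. Replicate numbers follow accession order and pair no animals. Of 31771 identifiers 31669 matched a symbol, and 0 columns were left without a sample.

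edgeR 4.0.16 in R 4.3.3 was run on all genes with TMM factors, filterByExpr with the groups, and robust quasi-likelihood tests, adjusted by Benjamini-Hochberg with a threshold of 0.05. The script was tested on simulated data. The SE is the fold change over the square root of F. Ratios to the control mean use TMM log2 CPM with a prior count of 2. Alternatives were other scalings, filters and gene sets, DESeq2 1.42.0, limma 3.58.1 (voom), a test against a 2-fold change, and each library left out. Members and lists were chosen with earlier results of these data known. Named genes were the members, tested relatives, the 2 most abundant genes of each lineage list discussed, the 2 nearest profiles and called neighbours. Mpo, Ctsg, Cebpe, F13a1, Tlx1, Clec9a, Epor and Cdh5 were named after their values were seen. One gene that the rule names is not reported here. Protein identity was not analysed here.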

Additional observations from a re-analysis of the deposited data

How the results depend on the processing

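Over 19 alternatives, Ms4a1 stayed lower and past the threshold in all, and Ms4a3 stayed higher in all and past the threshold in 16, the exceptions being each control left out. Ms4a4b and Ms4a4c kept a negative and Ms4a6d and Ms4a8a a positive fold change in all 19. They passed in 4, 2, 4 and 3 of them, the 1 with mutant 3 alone included. No paired analysis was possible because the labels give the mutants and the controls no shared replicate numbers. Leaving out 1 library moved the genes higher over a range of 4 to 2794 and the genes lower over 119 to 3137, from 995 and 1351, with the highest counts without mutant 2 and the lowest without control 2. Without mutant 1 they were 1780 and 1930, without control 1 they were 6 and 130, and without control 3 they were 8 and 128. The members higher then ranged from 0 to 3 and the members lower from 1 to 4.

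DESeq2 called 2841 genes higher and 2809 lower, with 3 members higher (Ms4a3, Ms4a6d and Ms4a8a) and 2 lower (Ms4a1 and Ms4a4b). Limma-voom called 1009 of 19573 genes higher and 1991 lower, with 1 member higher and 2 lower. With sample weights it called 1842 genes higher and 1840 lower, with 2 members higher and 2 lower. A variance for each group gave 727 genes higher and 786 lower, with 1 member higher and 1 lower. The test against a 2-fold change called 87 genes higher and 541 lower. Mutant 3 alone against the controls, an alternative chosen after seeing the data that assumes the lone mutant to vary like the controls, called 5602 genes higher and 5864 lower, with 3 members higher and 6 lower.

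Directions turned for 4 members. By limma-voom, which averages logs and not counts, Ms4a2, Ms4a6b, Ms4a6c and Ms4a7 had log2 fold changes of -0.79, -1.78, -1.43 and -0.021, with sample weights -1.41, -2.46, -1.74 and -0.34, and with a variance for each group -0.79, -1.79, -1.43 and -0.030. With mutant 3 alone they were -2.59, -3.09, -1.86 and -0.47. With 1 library left out, Ms4a2 ranged from -2.37 (without mutant 1) to 1.44, Ms4a6b from -3.37 to 0.68, Ms4a6c from -2.57 to 0.82 and Ms4a7 from -1.25 to 2.70, the last 3 lowest without mutant 2. DESeq2 gave Ms4a2 and Ms4a6b no adjusted p, and the filter at 1 CPM dropped Ms4a2. With upper-quartile factors Ms4a6b was at -0.00093. With 3 libraries a group and mutants this unlike, a member that did not pass is not shown to be unchanged, and Ms4a2, at 12 to 354 counts a library, is the member that depth limits most.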

Other observations

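Lineage lists that the text has not described also differed between mutants. Of the megakaryocyte and platelet list 3 of 6 genes rose. Itga2b, an integrin of platelets and early progenitors, was at 1920.1, 197 and 2944 CPM in mutants 1, 2 and 3 (controls 77.0 to 136 CPM, log2 fold change 3.85 ± 0.94, adjusted p = 0.0498), and Pf4, a platelet chemokine, at 586, 247 and 1308 CPM in mutants 1, 2 and 3 (controls 62.7 to 125 CPM, log2 fold change 2.81 ± 0.64, adjusted p = 0.0415). Both were highest in mutant 3. The count that rose was 2 without mutant 1, 4 without mutant 2, 0 without mutant 3, 4 by DESeq2 and 2 by limma-voom, and neither passed once any 1 control was left out. Of the 8 natural killer and cytotoxic genes 0 passed by edgeR. With p unadjusted and under 0.05 it called 1 higher and 1 lower, and DESeq2 and limma-voom each called 1 lower. Without mutant 2, edgeR called 3 lower. Gzmb, a protease of cytotoxic cells, was at 807, 7.38 and 0.704 CPM in mutants 1, 2 and 3 (controls 1.5 to 2.87 CPM, log2 fold change 6.83 ± 2.53, adjusted p = 0.130), and so was high in mutant 1 alone, the library with the highest Ms4a2, Fcer1a and Ms4a3. Nkg7, a granule membrane protein of the same cells, was at 34.7, 32.8 and 16.6 CPM in mutants 1, 2 and 3 (controls 37.3 to 44.4 CPM).

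Of the dendritic cell list 1 of 8 genes fell (Clec9a, which binds actin of dead cells on dendritic cells, log2 fold change -2.23 ± 0.46, adjusted p = 0.0326). The count that fell was 2 without mutant 1, 6 without mutant 2, 3 by DESeq2 and 4 by limma-voom. Itgax, the integrin CD11c, was at 3.13, 48.1 and 11.9 CPM in mutants 1, 2 and 3 (controls 97.5 to 106 CPM), and Bst2, an interferon-induced antiviral protein, at 35.3, 90.8 and 80.0 CPM in mutants 1, 2 and 3 (controls 37.8 to 57.7 CPM). Of the erythroid list 1 of 8 rose (Epor, the erythropoietin receptor, log2 fold change 2.25 ± 0.55, adjusted p = 0.0499). The count that rose was 4 without mutant 1 or by DESeq2, and 0 without mutant 2, without mutant 3 or by limma-voom. Hbb-bs and Alas2, for adult beta globin and the first enzyme of heme synthesis in red cells, were at 2443, 29734 and 844 CPM in mutants 1, 2 and 3 (controls 38782 to 61514 CPM) and at 72.9, 1365 and 458 CPM in mutants 1, 2 and 3 (controls 831 to 1416 CPM). In the endothelium and stroma list 5 of 8 genes fell, 0 rose and 3 were not called. Cdh5, the gene of VE-cadherin, was not among those that fell. It was at 44.1, 42.6 and 164 CPM in mutants 1, 2 and 3 (controls 38.9 to 44.6 CPM). Pecam1, an adhesion molecule of endothelium and blood cells, was at 148, 123 and 126 CPM in mutants 1, 2 and 3 (controls 292 to 318 CPM, log2 fold change -1.21 ± 0.16, adjusted p = 0.0122), and Ccl21a, a chemokine of T-cell zones, at 6.13, 8.65 and 7.0 CPM in mutants 1, 2 and 3 (controls 269 to 343 CPM, log2 fold change -5.41 ± 0.26, adjusted p = 0.000704). With any 1 control left out, the dendritic and erythroid calls were lost and 1 of the 5 stroma genes still passed.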
